A study of Mus musculus with 25 samples.

Results

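The 9 genes described here move and process vitamin A: the blood carriers Ttr and Rbp4, the uptake receptor Stra6, the cellular binding proteins Rbp2, Crabp1 and Crabp2, the retinol dehydrogenase Rdh7 and the retinal dehydrogenases Aldh1a1 and Aldh1a2. They were found by their symbol in the array annotation, all 9 were present, and they made up 12 of 34945 probe sets with a single symbol and 9 of 18193 named genes. Ttr had 4 probe sets and each of the others had 1. The study hybridised mouse RNA to 25 Affymetrix expression arrays, 1 for each sample, and its labels form 10 groups. Values are log2 signals, so a difference of 1 is a doubling, and signals of different probe sets cannot be set against each other as amounts of RNA.

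Induced hepatocytes (iHep, n = 3 independent lines) were made from C57BL/6J fibroblasts of E13.5 embryos with retroviruses carrying Foxa1 and Hnf4a, and all other iHep groups share these transgenes. Further iHeps carried scramble or Cdx2 shRNA from a lentivirus and were selected with puromycin (n = 4 each), and the labels do not name their line. Engrafted iHeps (n = 2) had been placed in DSS-damaged colons of Rag2gammac-/- mice for 12 days and were sorted by GFP after EDTA and 0.25% trypsin. Colon crypts (n = 2) came from 8-week-old Rag2gammac-/- mice by EDTA and 0.25% trypsin, and damage is not mentioned for them. Fetal liver (n = 2) was C57BL/6J at stage E14.5. Adult liver (n = 2) was C57BL/6J, but its labels name fresh liver at 8 weeks in one place and collagenase-isolated hepatocytes at 10 weeks in another. Induced macrophages (iMac, n = 2 per group) came from the C10 pre-B cell line, induced with 100 nM estradiol in the scramble description, after scramble, Ebf1 or Pou2af1 shRNA and puromycin. Apart from the iHep lines, nothing says that replicates were separate cultures or animals, so p-values measure the spread between these arrays, which may be technical.

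Retinol leaves the liver bound to RBP4, which circulates in a complex with transthyretin, the product of Ttr, and enters many cells through STRA6. Inside cells RBP2 and its relatives hold retinol, short-chain dehydrogenases such as RDH7 oxidise it to retinal, ALDH1A enzymes turn retinal into retinoic acid, and CRABP1 and CRABP2 bind that acid on its way to breakdown or to nuclear receptors. Adult liver takes up, stores and releases retinol, while intestinal cells use RBP2 during absorption.

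The promoters of 4 members are shown, as examples of a gene highest in adult liver (Rdh7, Rbp4), in cultured iHeps (Crabp1) and in engrafted iHeps (Rbp2). Motifs were searched in them because iHeps carry Foxa1 and Hnf4a and were tested with Cdx2 shRNA. Each is the 250 bases before the most downstream RefSeq start, read 5′ to 3′ on the gene's strand in GRCm38.p6. Capitals mark matches to the motifs searched. The Rdh7 window lies at chr10:127888734-127888983 (minus strand), that of Rbp4 at chr19:38124812-38125061 (minus strand), that of Rbp2 at chr9:98490287-98490536 (plus strand) and that of Crabp1 at chr9:54764498-54764747 (plus strand).
Rdh7: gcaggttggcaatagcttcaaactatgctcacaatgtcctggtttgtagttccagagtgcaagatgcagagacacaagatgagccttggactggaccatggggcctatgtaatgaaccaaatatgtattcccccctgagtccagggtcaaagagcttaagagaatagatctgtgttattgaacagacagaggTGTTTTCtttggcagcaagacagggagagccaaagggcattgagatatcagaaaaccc
Rbp4: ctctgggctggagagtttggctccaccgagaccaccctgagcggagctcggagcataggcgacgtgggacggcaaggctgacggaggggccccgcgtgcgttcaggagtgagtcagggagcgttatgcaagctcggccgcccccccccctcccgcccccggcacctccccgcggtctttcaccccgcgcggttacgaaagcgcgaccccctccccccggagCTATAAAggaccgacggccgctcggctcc
Rbp2: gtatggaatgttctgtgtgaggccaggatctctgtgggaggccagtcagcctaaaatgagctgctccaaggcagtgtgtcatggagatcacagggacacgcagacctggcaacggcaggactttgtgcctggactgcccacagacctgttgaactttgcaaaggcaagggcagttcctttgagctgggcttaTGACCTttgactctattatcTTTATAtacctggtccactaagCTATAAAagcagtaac
Crabp1: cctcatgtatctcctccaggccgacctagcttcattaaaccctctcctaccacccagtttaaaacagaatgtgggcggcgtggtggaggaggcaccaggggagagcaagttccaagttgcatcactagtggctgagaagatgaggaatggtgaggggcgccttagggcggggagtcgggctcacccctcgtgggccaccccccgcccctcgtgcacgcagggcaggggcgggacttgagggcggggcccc

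The motifs were searched on both strands of these windows. The Rbp4 window held the TATA box letters TATAAA 28 to 23 bases before the start, and the CDX letters TTTATNG on the other strand overlapped them. The Rbp2 window held TATAAA at 15 to 10 bases before the start, again overlapped by a CDX match, a reverse TATA box at 38 to 33 and the nuclear receptor half-site AGGTCA on the other strand at 58 to 53. The Rdh7 window held the FOXA letters TGTTTNC at 58 to 52 bases before the start. In the Crabp1 window none of the 8 motifs was found. The same was so in the windows of Stra6, Aldh1a1 and Aldh1a2 before their most downstream start, which are not shown. No window shown held the HNF4 letters CAAAGTCCA or a direct repeat of AGGTCA spaced by 1, 2 or 5 bases. Of 32851 RefSeq windows of this length, 12.4% held TATAAA, 14.0% AGGTCA, 9.81% TTTATNG, 17.8% TGTTTNC, 0.384% CAAAGTCCA, and 0.164%, 0.174% and 0.0883% the repeats spaced by 1, 2 and 5 bases. A match is only a description of letters.

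Some arrays stood apart in ways that touch the comparisons. Poly-A control RNAs gave a mean signal of 8.30 to 10.42 in adult liver, fetal liver and all cultured iHep arrays, and of 3.84 to 4.29 in engrafted iHep, colon and iMac arrays. Comparisons of engrafted iHeps with iHeps, and of colon with iHeps or adult liver, cross that division. Any difference in preparation, which the labels do not name, and the group cannot be told apart there. The 3′ over 5′ log2 difference of the actin controls was 1.21 to 1.99 in adult liver and at most 0.49 in the other groups. That of the Gapdh controls was 1.05 to 1.46 in adult liver, 1.38 to 1.41 in engrafted iHeps and 0.79 to 0.86 in colon, against -0.09 to 0.04 in iHeps; its part in the comparisons of these groups was not tested. The hepatocyte list averaged 13.95 and 13.97 in adult liver, 9.46 and 9.15 in fetal liver, and 6.71, 7.73 and 8.55 in the iHep lines. The lowest of these, iHep replicate 1, also had the lowest Hnf4a of the lines, at 7.67 against 10.78 and 10.48. Foxa1, the other transgene, averaged 4.32 ± 0.19 (SD) in the lines, below the background level given below. Its means were 7.64 in adult liver, 5.43 in fetal liver, 8.82 in engrafted iHeps and 10.23 in colon. Engrafted iHeps averaged 6.81 and 5.99 for hepatocyte markers and 11.05 and 10.66 for colon epithelium markers. The colon crypts averaged 6.50 and 6.38 for the former and 11.69 and 11.49 for the latter. Kupffer cell and macrophage markers averaged 11.33 and 9.24 in adult liver against 5.46 to 5.66 in iHeps, and erythroid markers averaged 11.34 and 11.52 in fetal liver. In such bulk samples fewer cells of a type and less RNA per cell cannot be told apart. Background is taken here as the 40th percentile of an array, which lay between 5.52 and 5.80.

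**Figure D1:**
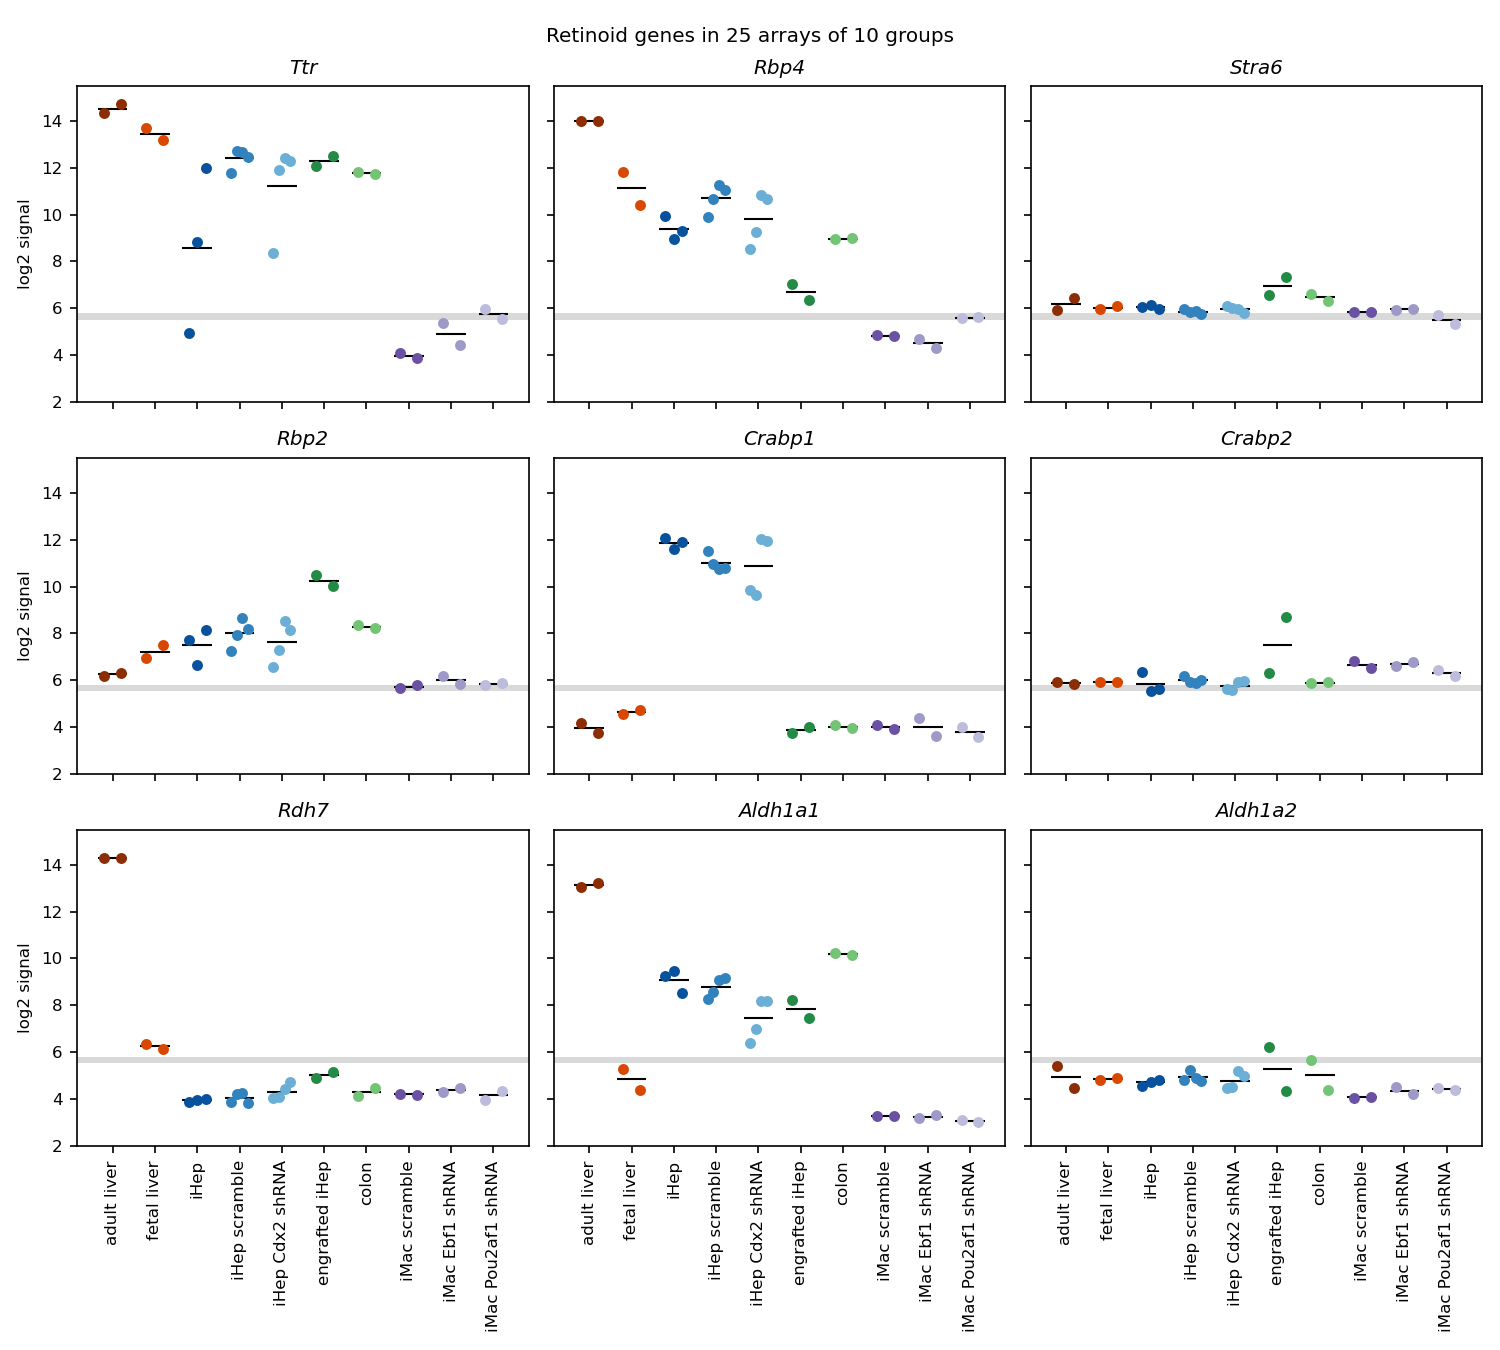
Log2 signal of the 9 retinoid genes (1 probe set per gene) in each of 25 arrays, ordered by 10 groups; points are arrays, black bars are group means and the grey band spans the 40th percentile of the arrays (5.52 to 5.80). Rdh7 stands out in adult liver, Crabp1 in the 3 groups of cultured iHeps and Rbp2 in engrafted iHeps, while Stra6 stays near the band and Aldh1a2 mostly below it.

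Ttr was a gene of liver, colon and most iHep cultures alike. Its level was 14.33 and 14.74 in adult liver and 13.72 and 13.19 in fetal liver. In the 3 iHep lines it was 4.93, 8.84 and 12.00. On this probe set the lines therefore ran from under the background level to close to the colon, where Ttr was 11.84 and 11.75. On 1 of the other 3 probe sets the lowest line was above background at 6.22, beside 5.77 to 6.27 in the iMac arrays. Scramble-treated iHeps had 11.80, 12.71, 12.67 and 12.45. Engrafted iHeps had 12.06 and 12.50, within the range of the scramble-treated cultures. All 6 iMac arrays lay between 3.87 and 5.95 on the main probe set.

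Against adult liver, iHep Ttr fell by 5.94 ± 1.50 (SE) on the log2 scale (limma adjusted p = 0.00698). Against fetal liver it fell by 4.86 ± 1.50 (limma adjusted p = 0.0314). The spread of the lines weighs on this: without iHep replicate 1 the differences were -4.11 and -3.03, and without iHep replicate 2 or either fetal liver array the second was no longer called (-4.99, -4.60 and -5.13, limma adjusted p = 0.0634 to 0.147). It was also not called when only the arrays with control RNA signal were fitted (limma adjusted p = 0.055). The order of Ttr among the lines was that of the hepatocyte list, of the fetal hepatoblast list (6.47, 9.29 and 11.22) and of Alb, albumin, which ranged from 5.69 to 11.59 in them. Whether these move together for one reason was not tested. Fetal and adult liver differed by -1.08 ± 1.64 (limma adjusted p = 0.629, 95% interval -4.76 to 2.60). This SE uses a spread shared with the iHep lines (SD 3.54), while the SD was 0.38 in fetal and 0.29 in adult liver.

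For Ttr, the engrafted comparisons depend on the probe set. With the main one, engrafted iHeps were 3.69 ± 1.50 above iHeps and did not pass (limma adjusted p = 0.0674), and without iHep replicate 1 the difference was 1.86. The other 3 probe sets gave 2.94, 4.58 and 3.50 with limma adjusted p = 0.0121, 0.0277 and 0.0476. Leaving out iHep replicate 3, the line with most Ttr, gave 5.39 (limma adjusted p = 0.00273). Engrafted iHeps and colon differed by 0.49 ± 1.64 (95% interval -3.19 to 4.16). iHeps differed from colon by -3.20 ± 1.50 (limma adjusted p = 0.0975), which passed in 2 of the 4 probe sets and without iHep replicate 3 (-4.91), and was -1.37 without iHep replicate 1. Adult liver and colon differed by 2.74 ± 1.64 (limma adjusted p = 0.174), which passed in 1 of the 4 probe sets. The SEs of all these differences use 1 spread shared by all groups of the fit. That spread includes the iHep lines (SD 3.54), against 0.29 in adult liver, 0.31 in engrafted iHeps and 0.06 in colon. In the engrafted arrays Alb was 6.26 and 6.24 and the hepatoblast list 5.63 and 4.74, so Alb and that list were low where Ttr was high. Not all hepatocyte markers fell. Of 9 tested, 1 was called higher and 3 lower in engrafted than in cultured iHeps, where 18.2% and 29.7% of all genes were. In both engrafted arrays 6 of the 9 were above background, beside 5 in both colon arrays. Against colon, 0 of the 9 were called higher in engrafted iHeps and 1 lower, where 7.1% and 9.66% of all genes were. Enteroendocrine markers averaged 7.64 and 7.94 in engrafted iHeps and 7.99 in both colon arrays, against at most 5.30 in all other arrays. These near-equal means hide differences between single markers. Of 11 tested, 6 were called higher in engrafted iHeps than in colon and 3 lower, with a median of 1.33, beside those same shares of all genes. Their part in the Ttr and Rbp2 signals was not tested.

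Rbp4, the retinol carrier itself, separated the groups more evenly. Both adult liver arrays had 13.99. Fetal liver had 11.84 and 10.41, and the iHep lines 9.93, 8.95 and 9.30. All 3 lines lay below both fetal arrays, and the lines spread far less than for Ttr. Scramble-treated iHeps had 9.91, 10.69, 11.28 and 11.04, overlapping fetal liver, so not all cultured iHeps lay below it. Colon crypts had 8.95 and 9.0, inside the iHep range. Engrafted iHeps had 7.05 and 6.37, the lowest of the liver, colon and iHep groups and still above background. The iMac arrays lay between 4.32 and 5.61.

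Rbp4 was 24.2-fold lower in iHeps than in adult liver (log2 -4.59 ± 0.43, limma adjusted p = 1.32e-05) and fell by 2.86 ± 0.47 from adult to fetal liver (limma adjusted p = 0.000599). Between iHeps and fetal liver the difference was -1.73 ± 0.43 (limma adjusted p = 0.0109), and -1.02 and not called without fetal liver replicate 1 (limma adjusted p = 0.111). Engrafted iHeps had less Rbp4 than cultured iHeps, with a log2 difference of -2.69 ± 0.43 (limma adjusted p = 0.000725). They also had less than colon crypts, at -2.27 ± 0.47 (limma adjusted p = 0.0111). That second call was lost without either colon array (-2.29 and -2.24, limma adjusted p = 0.0708 and 0.0738), although the size hardly moved. iHeps and colon differed by 0.42 ± 0.43 (95% interval -0.53 to 1.38), while adult liver was 32.4-fold above colon (log2 5.02 ± 0.47, limma adjusted p = 1.4e-05).

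Stra6, the receptor that takes up retinol from RBP4, was dim throughout. Its 25 values ran from 5.34 to 7.35, and 9 of the 10 groups had means between 5.52 and 6.46. The highest group was engrafted iHeps with 6.57 and 7.35, next to colon with 6.60 and 6.33, and these overlapped. Against iHeps, at 6.06 ± 0.09 (SD, n = 3), Stra6 was higher in engrafted cells by 0.90 ± 0.26 (limma adjusted p = 0.019). Without engrafted replicate 2 this was 0.51 and not called (limma adjusted p = 0.135), and without iHep replicate 3 it was 0.86 and not called (limma adjusted p = 0.0523). A related receptor of liver, Stra6l, had another pattern and was at 12.05 and 12.13 in adult liver, while its group means were 5.12 in fetal liver, 3.96 in iHeps, 4.10 in engrafted iHeps and 6.33 in colon.

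Rbp2, the intestinal retinol-binding protein, was highest in the engrafted cells. They had 10.49 and 10.01, above both colon arrays at 8.37 and 8.21. The iHep lines had 7.73, 6.64 and 8.16, fetal liver 6.94 and 7.51, and adult liver 6.20 and 6.29. Cultured iHeps thus lay between adult liver and colon, with a spread that covered fetal liver. Scramble-treated iHeps had 7.25, 7.95, 8.66 and 8.17, overlapping the colon values.

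Rbp2 was 6.68-fold higher in engrafted iHeps than in iHeps (log2 2.74 ± 0.40, limma adjusted p = 0.000465) and 3.89-fold higher than in colon (log2 1.96 ± 0.44, limma adjusted p = 0.0159). The first difference crosses the division by control RNA and the second does not. Without colon replicate 1 or 2 the second was 2.04 and 1.88 and not called (limma adjusted p = 0.0818 and 0.10). Rbp2 was lower in adult liver than in colon, with a log2 difference of -2.04 ± 0.44 (limma adjusted p = 0.00273). In iHeps it was 1.26 ± 0.40 above adult liver (limma adjusted p = 0.0219). This small difference lost its call when any array but iHep replicate 2 was left out (0.94 to 1.31, limma adjusted p = 0.0566 to 0.0993). iHeps differed from colon by -0.78 ± 0.40 (limma adjusted p = 0.128), and by -1.10 and called without iHep replicate 3 (limma adjusted p = 0.0388).

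Crabp1, which binds retinoic acid in the cytoplasm, was found in cultured iHeps and in no other group above background. The 3 lines had 12.06, 11.59 and 11.89. Scramble-treated iHeps had 11.51, 10.97, 10.76 and 10.78. In the other 14 arrays, those of both livers, colon, engrafted iHeps and iMacs, the values ran from 3.58 to 4.73. The 2 engrafted arrays, whose cells were labelled as iHeps, had 3.76 and 4.02, like colon at 4.08 and 3.94. The iHep lines that differed most in Ttr thus had nearly the same Crabp1.

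Crabp1 was higher in iHeps than in adult liver by 7.89 ± 0.23 (limma adjusted p = 1.99e-08), than in fetal liver by 7.21 ± 0.23 (limma adjusted p = 1.05e-07) and than in colon by 7.84 ± 0.23 (limma adjusted p = 3.1e-08). Engrafted iHeps differed from cultured iHeps by -7.96 ± 0.23 (limma adjusted p = 3.49e-08). The dim side of each difference lies below background, so these sizes are no exact folds. Leaving out any 1 array moved the 4 values to between 7.10 and 8.10 in size. The joint list of stellate cell and fibroblast markers averaged 5.70, 7.02 and 7.10 in the lines, whose Crabp1 was 12.06, 11.59 and 11.89. iHeps were made from fibroblasts, and the part of remaining fibroblasts in Crabp1 was not tested. Fetal liver passed the test above adult liver by 0.68 ± 0.25 (limma adjusted p = 0.0428) with both groups below background, and lost the call without either fetal array or adult liver replicate 2 (0.78, 0.59 and 0.48).

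Crabp2, which carries retinoic acid to its receptors in the nucleus, was near background in most groups. It had 5.91 and 5.83 in adult liver, 5.93 and 5.94 in fetal liver, 5.86 and 5.93 in colon and 6.36, 5.52 and 5.62 in the iHep lines. The 6 iMac arrays were at 6.19 to 6.82. Engrafted iHeps had 6.32 and 8.71, so that the 2 arrays of this group stood far apart. The difference from iHeps was 1.68 ± 0.56 (limma adjusted p = 0.032), and 0.49 without engrafted replicate 2 (limma adjusted p = 0.242). It was also not called without iHep replicate 2 or 3 (1.52 and 1.57, limma adjusted p = 0.0874 and 0.0793). In engrafted replicate 2, stellate cell and fibroblast markers averaged 7.76 against 5.93 in replicate 1, and macrophage markers 6.98 against 5.25. These 2 arrays differed more than any other replicates, with an SD of 0.90 over all genes, and the part of such cells in Crabp2 and Stra6 was not tested.

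Rdh7, a short-chain dehydrogenase that oxidises retinol and also steroids, marked adult liver. Its 2 arrays had 14.28 and 14.31. Fetal liver had 6.34 and 6.14, a little above background. All 3 iHep lines lay between 3.88 and 4.01, and engrafted iHeps had 4.91 and 5.16. The other arrays lay between 3.83 and 4.72. No iHep array, cultured or engrafted, reached the fetal level.

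Rdh7 was lower than in adult liver both in iHeps, at -10.36 ± 0.19 (limma adjusted p = 3.68e-09), and in fetal liver, at -8.06 ± 0.21 (limma adjusted p = 4.67e-08). iHeps differed from fetal liver by -2.30 ± 0.19 (limma adjusted p = 1.86e-05). Adult liver exceeded colon by 10.00 ± 0.21 (limma adjusted p = 1.61e-08). The iHep and colon values lie below background, so the sizes against them are no exact folds. Engrafted iHeps passed above iHeps by 1.09 ± 0.19 (limma adjusted p = 0.00137) and above colon by 0.74 ± 0.21 (limma adjusted p = 0.0421), with all these values below background. The second of these was lost without either colon array or engrafted replicate 2 (0.58, 0.89 and 0.61). Rdh7 lies in a row of related genes with Rdh9, Rdh16, Rdh19 and Rdh16f2, and a probe set can share sequence between such copies. Rdh9 had 11.69 and 10.26 in adult liver and 6.97 and 6.91 in colon. Rdh16 had 9.66 and 9.95 in adult liver and 8.38 and 7.96 in colon, so these neighbours were above background in colon where Rdh7 was not.

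Aldh1a1, which makes retinoic acid from retinal, was shared by adult liver, colon and iHeps. Adult liver had 13.06 and 13.23, and colon 10.24 and 10.13. The iHep lines had 9.27, 9.48 and 8.51. Fetal liver had 5.27 and 4.40, below background and below every iHep array. Engrafted iHeps had 8.23 and 7.45, under all 3 lines. The iMac arrays lay between 3.02 and 3.29.

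For Aldh1a1 the iHep lines lay between fetal and adult liver. iHeps exceeded fetal liver by 4.25 ± 0.37 (limma adjusted p = 2.16e-05) and differed from adult liver by -4.06 ± 0.37 (limma adjusted p = 1.17e-05). Fetal and adult liver differed by -8.31 ± 0.40 (limma adjusted p = 4.93e-07). Fetal liver was below background, so the sizes against it are no exact folds. Engrafted and cultured iHeps differed by -1.25 ± 0.37 (limma adjusted p = 0.0192), a call lost without iHep replicate 2 (-1.05) or engrafted replicate 2 (-0.85). Adult liver was 7.76-fold above colon (log2 2.96 ± 0.40, limma adjusted p = 0.000166). Engrafted iHeps differed from colon by -2.35 ± 0.40 (limma adjusted p = 0.00505), which kept its call with each of these 4 arrays left out. Cultured iHeps differed from colon by -1.10 ± 0.37 (limma adjusted p = 0.0292), a call lost without iHep replicate 3 or either colon array (-0.81, -1.05 and -1.16). The neighbouring and closely related Aldh1a7 was likewise highest in adult liver and, of these groups, lowest in fetal liver, with means of 12.56 in adult liver, 10.04 in iHeps, 9.20 in colon, 6.96 in engrafted iHeps and 5.77 in fetal liver, and the 2 genes' probe sets may share signal.

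Aldh1a2, the retinal dehydrogenase of many embryonic tissues, stayed low. Its 25 values ran from 4.04 to 6.21, and the highest was engrafted replicate 1, whose partner had 4.34. It was above background in 2 of 25 arrays, the other being colon replicate 1 at 5.65, and was tested only because of these. In 0 of the 7 comparisons among liver, colon and iHep groups was it called, with differences from -0.32 to 0.57 and unadjusted p of 0.314 or more. Without engrafted replicate 2 the difference between engrafted and cultured iHeps was 1.51, which sets 1 engrafted array against iHep lines below background (4.57 to 4.80).

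**Figure D2:**
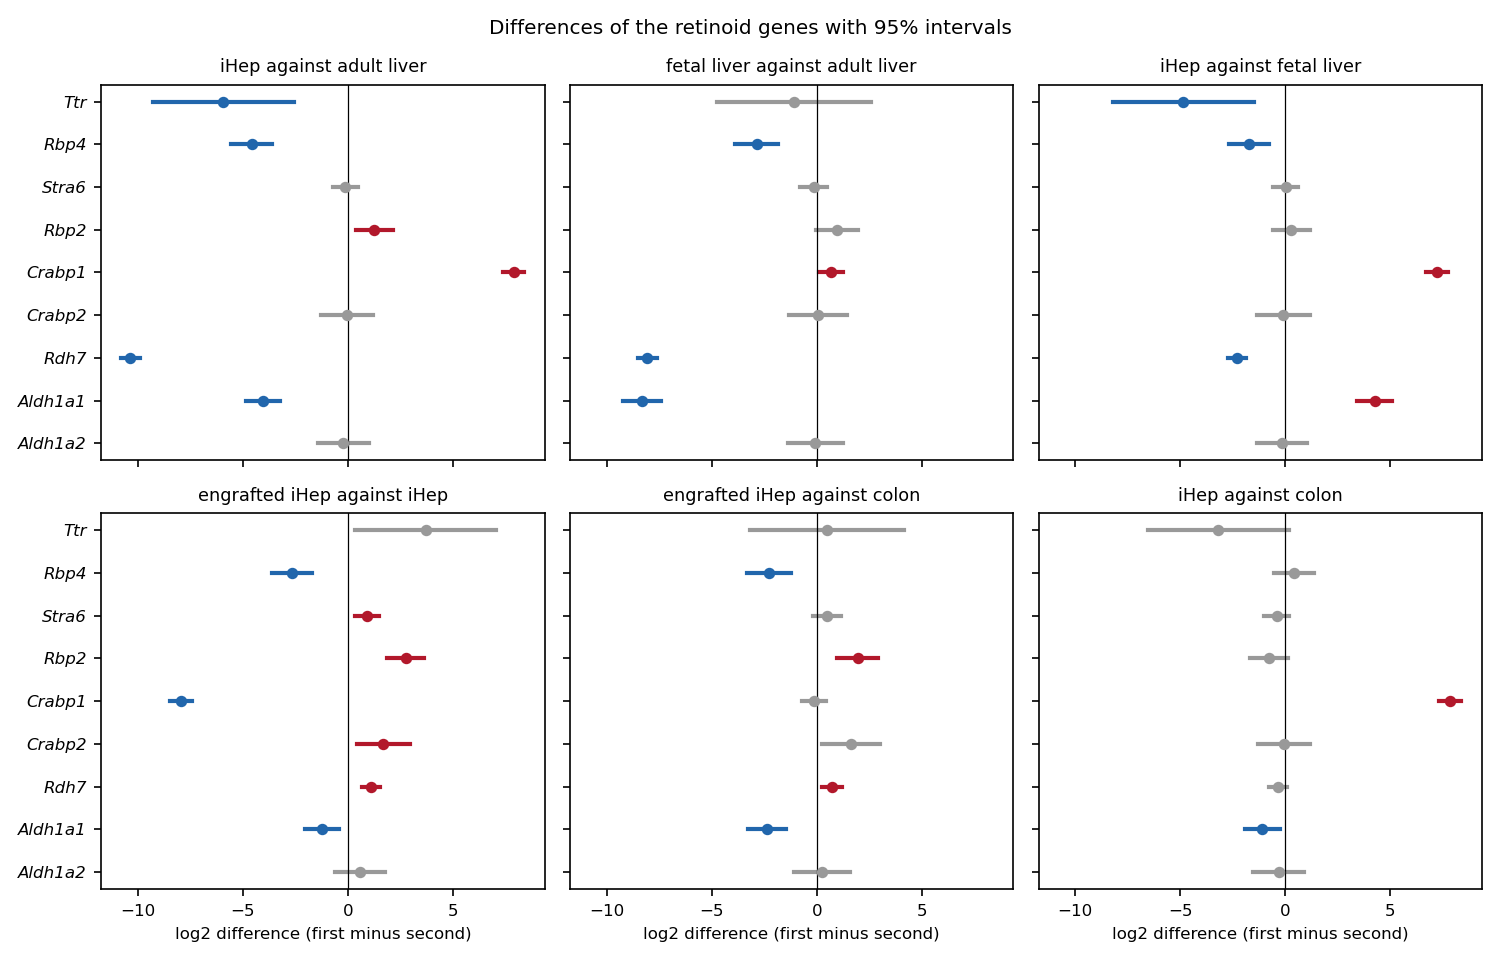
Log2 differences of the 9 retinoid genes in 6 comparisons of liver, iHep and colon groups (first group minus second); points are limma estimates, lines are 95% intervals, and red or blue marks genes called higher or lower at an adjusted p under 0.05. The widest intervals are those of Ttr, whose iHep lines ranged from 4.93 to 12.00, and Crabp1 differs in every panel with cultured iHeps.

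Read against all genes, the members' counts were as follows. Between iHeps and adult liver, 2 members were higher and 4 lower of 9 tested, where 37.8% and 18.2% of 15266 genes were called higher and lower (55.9% in all). Between iHeps and fetal liver 2 were higher and 3 lower, against 19.9% and 13.1% of all genes (33.0% in all). Between fetal and adult liver 1 was higher and 3 lower, against 31.1% and 18.2% (49.3% in all). Between engrafted and cultured iHeps 4 were higher and 3 lower, against 18.2% and 29.7% (48.0% in all). Between engrafted iHeps and colon 2 were higher and 2 lower, against 7.1% and 9.66% (16.8% in all). Between iHeps and colon 1 was higher and 1 lower, against 32.3% and 21.3% (53.6% in all). Between adult liver and colon 3 were higher and 1 lower, against 24.8% and 35.9% (60.7% in all). These comparisons share groups, so their counts are not independent. A gene was tested where it lay above background in at least 2 arrays of the fit. Crabp1 was tested only through the cultured iHeps, where it was high.

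More of the wider retinoid genes were lower than higher in iHeps and in fetal liver when set against adult liver. Of 66 listed genes, members included, 60 had a named probe set; without the members, 47 could be tested among the liver, iHep and colon groups. Against adult liver, iHeps had 5 of these 47 higher and 26 lower, with a median difference of -1.49 where the median of all genes tested was 0.26 and 37.8% and 18.2% of them were called higher and lower. Fetal liver had 4 higher and 25 lower, with a median of -0.87 against 0.16, where 31.1% and 18.2% of all genes were called. Both comparisons share the adult liver arrays, and the actin 3′ over 5′ difference of those arrays was the highest of all. A gene above background in only the 2 adult liver arrays was also tested, and could then only be lower or uncalled elsewhere. Lrat was such a gene. How many of the 47, or of all genes, entered in this way was not counted, so these counts and medians carry that limit.

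In iHeps the lower genes spanned uptake, storage, oxidation and breakdown. Of the alcohol and short-chain dehydrogenases, Adh1 differed from adult liver by -8.02 ± 0.53 (limma adjusted p = 1.67e-06), Adh4 by -5.69 ± 0.24 (limma adjusted p = 1.21e-07) and Rdh9 by -7.12 ± 0.35 (limma adjusted p = 3.3e-07). In the whole oxidation and reduction group, with Rdh7 counted, 2 of 16 tested were higher and 9 lower; the higher ones were Rdh13 and Rdh14, by 0.98 ± 0.26 and 1.14 ± 0.19. Lrat, which stores retinol as esters, was at 6.89 in adult liver and 3.85 in iHeps, and 4 of the 7 ester genes were lower. Lpl, lipoprotein lipase, was the 1 ester gene that was higher, by 2.53 ± 0.60 (limma adjusted p = 0.00505). Cyp26a1, the retinoic acid hydroxylase that responds to its own substrate, had 12.13 and 10.78 in adult liver and a mean of 5.48 in iHeps, 5.76 in fetal liver and 5.18 in colon. Fabp5, another carrier of retinoic acid, was higher in iHeps by 3.23 ± 0.61 (limma adjusted p = 0.00132) and in fetal liver by 3.34 ± 0.67 (limma adjusted p = 0.00216).

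**Figure D3:**
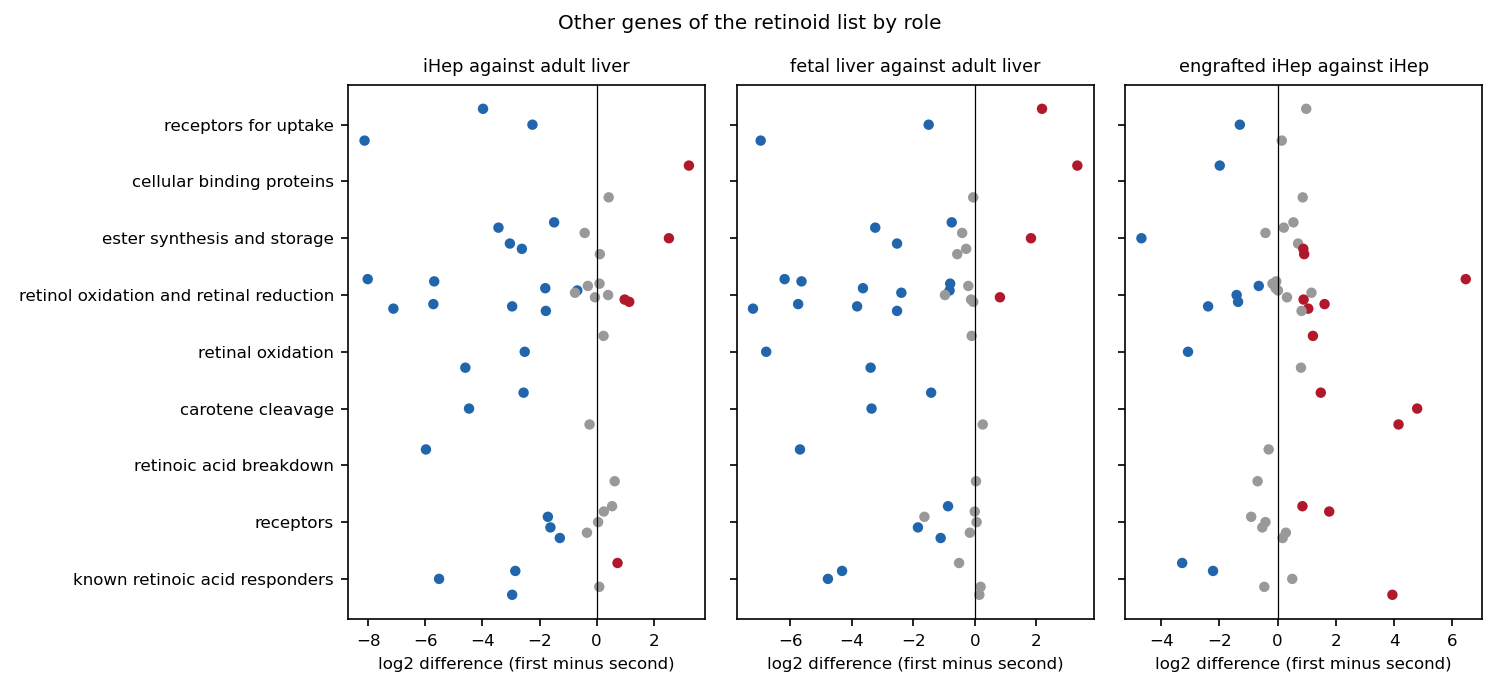
Log2 differences (first group minus second) of the retinoid genes other than the 9 members, by role, for 3 comparisons; each point is a gene, red and blue mark genes called higher and lower with limma and grey those not called, and the scale differs between panels. Against adult liver 26 of 47 genes in iHeps and 25 of 47 in fetal liver were lower, while all 3 carotene genes were higher in engrafted than in cultured iHeps.

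Between engrafted and cultured iHeps 13 of the 47 other genes were higher and 10 lower, where 18.2% and 29.7% of all genes were called, and the median was 0.21 where all genes had -0.22. All 3 carotene genes tested were higher: Bco2, which cleaves carotenoids, by 4.79 ± 0.24 (limma adjusted p = 8.73e-07), Isx, the intestinal homeobox gene that controls carotene uptake, by 4.15 ± 0.36 (limma adjusted p = 2.28e-05) and Bco1 by 1.48 ± 0.46 (limma adjusted p = 0.0244). Isx had group means of 9.61 in engrafted iHeps and 9.25 in colon, against at most 5.96 in the other groups. Adh1 rose by 6.46 ± 0.53 (limma adjusted p = 1.55e-05), to 12.25 ± 1.54 (SD, n = 2) beside 13.51 in colon. Rara, a retinoic acid receptor, rose by 1.77 ± 0.26 (limma adjusted p = 0.000513). Lpl fell by 4.68 ± 0.60 on the log2 scale (limma adjusted p = 0.000219). All 9 colon epithelium markers tested and 8 of 11 enteroendocrine markers were also higher in the engrafted arrays; the part of host colon cells in these values, and of the Gapdh 3′ over 5′ difference (1.38 to 1.41 against -0.09 to 0.04), was not tested.

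Against colon crypts, on the same side of the control RNA division, engrafted iHeps had 2 of the 47 other genes higher and 9 lower, where 7.1% and 9.66% of all genes were called. Fabp5 was higher by 2.54 ± 0.67 (limma adjusted p = 0.0305) and Rxrg by 0.93 ± 0.26 (limma adjusted p = 0.0384). Among the lower genes were Rdh16 at -2.47 ± 0.43 (limma adjusted p = 0.00527), Stra6l at -2.24 ± 0.27 (limma adjusted p = 0.00104), Rdh9 at -2.03 ± 0.39 (limma adjusted p = 0.00793) and Aldh1a7 at -2.24 ± 0.62 (limma adjusted p = 0.0366). The 3 carotene genes were not called, with a median of 0.11.

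The genes whose 10 group means ran most like a member's were taken from 5595 genes with a span of 3 or more. These are descriptions over 10 group means that include related cultures and fall on both sides of the control RNA division. For Ttr they were Apob, Bdh1 and Ctsh (Pearson r of 0.944, 0.944 and 0.943), and for Rbp4 they were Cyp4b1, Aldh4a1 and H2-Q10 (0.977, 0.976 and 0.976). Rdh7 was most like Ftcd, Serpina7 and Cpn2 (0.998, 0.997 and 0.997), all highest in adult liver. Aldh1a1 was most like Slc12a7, Ang and Mettl7b (0.99, 0.989 and 0.975). Rbp2 was most like Tedc1, Krt23 and Insm1 (0.958, 0.953 and 0.944), which were highest in engrafted iHeps. Crabp1 was most like Hs6st2, Cd109 and Arsj (0.993, 0.991 and 0.989), each highest in a cultured iHep group. Among the members themselves r was 0.86 for Ttr and Rbp4 and 0.79 for Rbp4 and Aldh1a1, but -0.30 for Crabp1 and Rdh7.

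The Cdx2 shRNA arrays show how the members stood when a regulator of intestine was lowered in iHeps. Cdx2 itself had 9.14, 9.42, 8.96 and 8.98 with scramble and 7.78, 8.02, 8.01 and 8.03 with Cdx2 shRNA, a difference of -1.16 ± 0.12 (limma adjusted p = 0.00397). Hnf4a was also lower, at -0.89 ± 0.18 (limma adjusted p = 0.044). Of the 9 members 7 could be tested, since Rdh7 and Aldh1a2 were below background, and limma called 0 of them, with 1 at an unadjusted p under 0.05; of 13658 genes 2.21% were called, 0.534% higher and 1.68% lower. With the replicate number as a block, limma called 1 of the 7, Aldh1a1 (lower), beside 5.56% of all genes, or 3.79% called lower.

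That gene was lower with Cdx2 shRNA in 4 of 4 same-numbered pairs. The share of all genes lower in 4 of 4 pairs was not counted. Aldh1a1 had 8.26, 8.58, 9.10 and 9.15 with scramble and 6.39, 7.00, 8.17 and 8.18 with Cdx2 shRNA. The difference was -1.34 ± 0.41 without the block (limma adjusted p = 0.152) and -1.34 ± 0.17 with it (limma adjusted p = 0.0194). Aldh1a7 differed by -0.55, -0.49, -0.13 and -0.12 in the 4 pairs. Within the Cdx2 shRNA group the SD of the log2 difference over all genes was 0.25 between replicates 1 and 2 and 0.23 between 3 and 4, against 0.38 to 0.49 across them; with scramble it was 0.26 and 0.23, against 0.25 to 0.35. When replicates 1 and 2, and 3 and 4, were averaged to 1 sample each, Aldh1a1 was not called (limma adjusted p = 0.936) and neither was any other gene, with 718 at an unadjusted p under 0.05.

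Rbp4, Rbp2 and Ttr were lower in 4 of 4 pairs without passing either fit. Of the other tested members, Crabp2 was lower in 3 of 4 pairs, Crabp1 in 2 of 4 and Stra6 in 0 of 4. Without the share of all genes lower in 4 of 4 pairs, such counts cannot be read as a result about the members. Replicates 1 and 2 were alike, as were 3 and 4, so the 4 pairs may not be independent. Rbp4 differed by -1.39, -1.41, -0.43 and -0.39, and Rbp2 by -0.70, -0.67, -0.12 and -0.05. Ttr differed by -3.44, -0.80, -0.24 and -0.16, and its group difference was -1.16 ± 0.81 (limma adjusted p = 0.553). Replicates 1 and 2 differed more than replicates 3 and 4 in each of these genes, and also in Cdx2 itself (-1.35 and -1.40 against -0.95 and -0.95). Crabp1 went opposite ways: it was at 9.85 and 9.62 with Cdx2 shRNA in replicates 1 and 2, against 11.51 and 10.97 with scramble. In replicates 3 and 4 it was at 12.04 and 11.95, against 10.76 and 10.78. Its mean difference of -0.14 ± 0.56 (95% interval -1.40 to 1.12) therefore describes none of the 4 pairs.

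**Figure D4:**
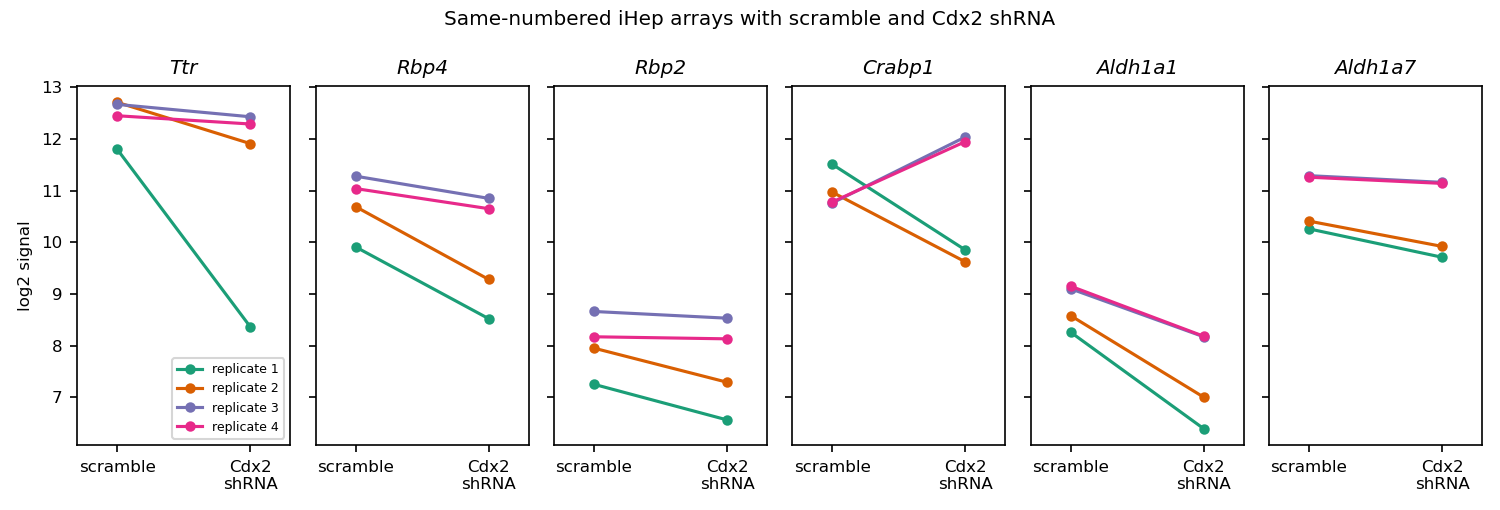
Log2 signal of 5 members and Aldh1a7 in iHeps with scramble and Cdx2 shRNA; lines join arrays with the same replicate number, and each point is 1 array. Aldh1a1 is lower in all 4 pairs, with differences of -1.87 to -0.93, and Crabp1 is lower in replicates 1 and 2 and higher in replicates 3 and 4.

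Of the 38 other retinoid genes tested here, limma called Cyp26b1 higher, at 0.53 ± 0.10 (adjusted p = 0.036), and Retsat lower, at -0.53 ± 0.10 (adjusted p = 0.0306). Of all genes 0.534% were called higher and 1.68% lower. CYP26B1 breaks down retinoic acid, and RETSAT saturates retinol. The block added Tgm2, a known retinoic acid responder, at -0.68 ± 0.08 (limma adjusted p = 0.018), where 5.56% of all genes were called. None of these genes was called when replicates 1 and 2, and 3 and 4, were averaged.

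In induced macrophages 6 of the 9 members were too dim to be tested on their main probe set. Stra6, Rbp2 and Crabp2 were the 3 that could be tested, with group means between 5.52 and 6.68, and limma called 0 of 3 in each of 3 comparisons, where 14.4%, 12.0% and 16.4% of 12483 genes were called for Ebf1 shRNA against scramble, Pou2af1 shRNA against scramble and Ebf1 against Pou2af1 shRNA. The shares called higher were 6.21%, 6.8% and 7.1%, and those called lower 8.16%, 5.15% and 9.31%. At an unadjusted p under 0.05 the counts were 0, 0 and 2. The arrays labelled Pou2af1 shRNA did not have less Pou2af1 than scramble, at 11.30 ± 0.06 against 11.16 ± 0.14 (SD, n = 2 each), whereas Ebf1 shRNA came with an Ebf1 difference of -1.04 ± 0.11 (limma adjusted p = 0.00389). On their main probe sets Ttr and Rbp4 were below background in most of these arrays, and without the filter on dim genes both were called higher in the arrays labelled Pou2af1 shRNA than in scramble, by 1.78 ± 0.31 and 0.77 ± 0.15 (limma adjusted p = 0.031 and 0.0411). The Ttr values behind this were 4.08 and 3.87 with scramble and 5.95 and 5.55 with Pou2af1 shRNA. The 1 Ttr probe set that passed the filter was above background in all 6 iMac arrays and gave 0.43 ± 0.11, which was not called (limma adjusted p = 0.0702).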

How the data were processed

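One array per sample was available for 25 mouse samples. The authors deposited log2 signals for each probe set, made with RMA per the submitters' processing notes, whose version is not given in the sources used here. They ran from 2.05 to 15.11, with array medians of 6.11 to 6.30. Precision is limited by how few arrays there were, as arrays hold no counts. Gene names came from the platform annotation (34945 probe sets with 1 symbol, 932 with several, 9160 not listed and 64 controls). The probe set with the greatest 25-array mean stood for a gene, and every Ttr probe set was also read.

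Genes above the 40th percentile in at least 2 arrays of a model were tested across all genes with limma 3.58.1 (R 4.3.3, lmFit, eBayes) in 3 models, two-sided, with Benjamini-Hochberg adjustment and an adjusted p under 0.05 as the call. Errors are SE for differences and SD for levels. Groups fitted in 1 model share 1 estimate of the spread for each gene, so an SE can reflect groups outside the comparison. Alternatives were other filters, probe set choices, normalizations and variance settings, a minimum change, a joint model, the replicate block and each array left out. Centred arrays, arrays on 1 side of the control RNA division, crossed liver numbers and averaged Cdx2 replicates were added after seeing the data. Same-numbered Cdx2 shRNA and scramble arrays deviated together (r of 0.53, 0.32, 0.58 and 0.44 over genes), so the numbers were taken to pair them, which the labels do not state. Differently numbered arrays also did, with r of 0.41 and 0.17 across replicates 1 and 2, and 0.35 and 0.19 across 3 and 4. These values cannot tell pairing by number from likeness within replicates 1 and 2 and within 3 and 4. The fits were tested on simulated data.

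The members and gene lists were chosen with earlier results of these data known. Named genes were the members, retinoid list genes, markers, shRNA targets and transgenes, and for each member the 3 genes of closest pattern. Promoter windows came from RefSeq. Those of Ttr and Crabp2 were not used here.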

Additional observations from a re-analysis of the deposited data

Results flagged for a closer look

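One result stood out from its group: Ttr in iHep Cdx2 shRNA replicate 1 was 8.36, against 11.91 to 12.43 in the other 3 arrays of the group. Its gap to the nearest array was 0.873 of the group's range, above the limit of 0.829 for 4 samples. Of 18 groups of values examined this way 1 passed the limit, and chance passes about 1 in 20. In the same-numbered scramble array Ttr was 11.80, the lowest of its group, and the 3 other Ttr probe sets had their lowest value of the Cdx2 shRNA group at 7.35, 6.87 and 8.14. Rbp4, Rbp2 and Aldh1a1 were also lowest in this array among the 4, at 8.52, 6.56 and 6.39, while Crabp1 was 9.85 and not the lowest. Without this array the Ttr difference between Cdx2 shRNA and scramble was -0.20.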

How the results depend on the processing

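Most results kept their direction and their side of the threshold: for single genes 1147 of the alternative values did, 53 lost a call, 19 gained one and 40 changed sign, the last all among uncalled values. With a minimum log2 change of 1 the members called were 3 for iHep against fetal liver, 3 for engrafted against cultured iHep, 0 for engrafted iHep against colon and 1 for iHep against colon. With each array left out in turn these counts ran from 3 to 5 for iHep against fetal liver, 1 to 6 for engrafted iHep against colon and 1 to 3 for iHep against colon. The replicate block raised the Cdx2 count to 1. Without the filter the count was 2 for Pou2af1 shRNA against scramble and 1 for Ebf1 against Pou2af1 shRNA, as more genes were then tested. For other shifts the cause was not tested.

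In the uncalled values that changed sign, the replicate block gave 0.07 for Crabp2 in iHep against adult liver, 0.00 for Crabp2 and -0.04 for Rbp2 in iHep against fetal liver, and 0.05 for Crabp2 in iHep against colon. Repeated quantile normalization gave 0.17 for Crabp2 and 0.05 for Stra6 in iHep against adult liver, 0.06 for Aldh1a2 in fetal against adult liver and 0.01 for Crabp2 in iHep against colon. Centred arrays, added after seeing the data, gave 0.12, 0.04, 0.05 and 0.07 for these. With each array left out, iHep against adult liver ran from -0.30 to 0.12 for Crabp2, -0.36 to 0.13 for Stra6 and -0.70 to 0.25 for Aldh1a2. iHep against fetal liver ran from -0.37 to 0.05 for Crabp2, -0.04 to 0.72 for Rbp2 and -0.03 to 0.09 for Stra6. Fetal against adult liver ran from -0.53 to 0.41 for Aldh1a2 and -0.39 to 0.10 for Stra6. Engrafted iHep against colon ran from -0.38 to 1.19 for Aldh1a2 and -0.25 to 0.01 for Crabp1, and iHep against colon from -0.32 to 0.10 for Crabp2. Adult liver against colon ran from -0.72 to 0.38 for Aldh1a2, -0.27 to 0.15 for Crabp1 and -0.06 to 0.02 for Crabp2. Crabp1 with Cdx2 shRNA ran from -0.53 to 0.27, Crabp2 with Ebf1 shRNA against scramble from -0.14 to 0.17 and Rbp2 for Ebf1 against Pou2af1 shRNA from -0.01 to 0.32.

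Outside the Cdx2 arrays, samples shared only a number. There the block gave 7052 genes called between fetal and adult liver, against 7527 without it and 7169 with the adult numbers crossed, a pairing added after seeing the data. Groups of 2 arrays and signals near background limit the precision.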

Other observations

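In the induced macrophages 32 listed retinoid genes other than the members were tested. With Ebf1 shRNA limma called 6 of them higher and 3 lower than with scramble, where 14.4% of all genes were called in either direction. In the arrays labelled Pou2af1 shRNA it called 3 higher and 3 lower than with scramble, where 12.0% of all genes were called. With the replicate number as a block these counts were 3 and 3, and 2 and 2. Cd36, a scavenger receptor that takes up lipids, rose by 1.40 ± 0.10 (limma adjusted p = 0.00095) and by 1.93 ± 0.10 (limma adjusted p = 0.000496). The receptor gene Rara rose by 0.67 ± 0.10 (limma adjusted p = 0.0111) and 0.57 ± 0.10 (limma adjusted p = 0.0197). Both comparisons share the scramble arrays. Dhrs3, which reduces retinal to retinol, was lower with Ebf1 shRNA at -1.06 ± 0.11 (limma adjusted p = 0.00356), and it was also lower with Ebf1 than with Pou2af1 shRNA at -1.42 ± 0.11 (limma adjusted p = 0.000833). Dgat2, which can esterify retinol, was lower in the arrays labelled Pou2af1 shRNA at -1.66 ± 0.12 (limma adjusted p = 0.00145), as was Tgm2 at -1.69 ± 0.27 (limma adjusted p = 0.0148).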
